A study of Rattus norvegicus with 29 samples.

Results

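The genes described here make, tag and run the ubiquitin-proteasome system: the subunits of the proteasome, its activators, inhibitor and assembly chaperones, the Ube2 ubiquitin-conjugating enzymes and the Usp deubiquitinases. They were chosen by symbol, without regard to their values, from the probe sets with a single annotated gene symbol: symbols starting with Psma to Psmg and a digit (without Psmb8 and Psmb9), with Ube2, or with Usp and a digit. This gave 126 probe sets of 101 genes, among 15866 non-control probe sets on the array. Of the 126, 113 probe sets of 95 genes passed the filter on low signal and were tested with all 9520 probe sets that passed it. The 13 that were not tested are 1 activator probe set, 4 conjugating-enzyme probe sets and 8 deubiquitinase probe sets. The symbol rule reaches wider than proteasome subunits and conjugating enzymes, since the Usp enzymes remove ubiquitin. Psmc3ip, a partner protein in meiotic recombination, and Psme3ip1, which binds the proteasome activator Psme3, match by spelling and are no subunits.

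RNA of the rat basolateral amygdala was measured on 29 one-colour expression arrays: 9 untreated baseline arrays and 5 each after pain, isoflurane (an inhaled anaesthetic that can block memory), fear conditioning, and fear conditioning under isoflurane. Pain is a component of conditioning, which pairs a signal with a shock, and the treated groups were sampled 6 h afterwards. The study asked which expression changes belong to long-term fear memory, and pain and isoflurane serve as controls for its parts. Rat numbers are given for 15 arrays (pain and both conditioning groups). Those of the pain group form a separate, lower run, while those of both conditioning groups are interleaved in a higher run. Anything that goes with this numbering cannot be told apart from the treatment in conditioning minus pain. For baseline and isoflurane the place in the numbering is not known. The record numbers of the isoflurane arrays form a separate, higher run than those of all other arrays. Anything that goes with this cannot be told apart from the treatment in any comparison with the isoflurane group, including the interaction. Strain, sex and age of the rats, and any further treatment shared by all groups, are not given in the sources used here. The labels name the RNA labelling kit of the baseline group and of the isoflurane group, and of no other, so a kit difference and the treatment cannot be told apart in pain or either conditioning group against baseline, or in conditioning under isoflurane against isoflurane. Since not all replicates are stated to be separate animals, p-values measure the spread between these arrays.

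The proteasome is a barrel-shaped protease, the 20S core, capped by a 19S regulatory particle that binds ubiquitin chains, removes them and threads the protein into the core. A ubiquitin is first activated, then carried by a conjugating (E2) enzyme, and placed on a target with the help of a ligase. Deubiquitinases take it off again. In the amygdala, ubiquitin-dependent degradation of synaptic proteins has been linked to the storage and the updating of fear memory, which is the reason to look at these genes in a conditioning study. Transcript levels say nothing of proteasome activity.

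Signals were quantile normalised, and all levels and differences below are on the log2 scale of normalised signal. Array medians before normalisation lay between 210.7 and 292.2, and the highest belongs to pain replicate 3, against 249.95 for the next array. Correlations between arrays ran from 0.89 to 0.98, and no 2 arrays were identical. Baseline levels of cell markers varied widely within each list. Among those of excitatory neurons, Nrgn was at 12.61 and Slc17a7 at 11.62 and 8.945 by different probe sets. Neurod2 was at 8.524, and Tbr1, at 6.744, was under the filter. Among striatal markers Penk was at 12.08 and Ppp1r1b at 10.01, Drd2 at 7.996 and Tac1 at 7.656. Adora2a, at 7.466 and 5.132, was not tested. Choroid plexus markers summed to 16695 in 1 baseline array against a baseline median of 974. The tissue is bulk, so fewer cells of a type and less RNA per cell cannot be told apart.

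No member passed the test in any comparison. After limma with Benjamini-Hochberg adjustment over 9520 probe sets, 0 of 113 member probe sets had an adjusted p under 0.05 in each of 7 differences between groups, the interaction and the F test over the 5 groups. Over all probe sets the share called was 0% in each, except for isoflurane minus baseline, where 1 probe set, 0.0105%, passed. At an unadjusted p under 0.05, 17 members stood out in conditioning minus baseline (background 10.1%), of which 15 were lower. The count was 14 in conditioning under isoflurane minus baseline (background 6.5%), 12 of them lower. It was 11 in pain minus baseline (background 8.96%) and 4 in isoflurane minus baseline (background 5.38%). Conditioning minus pain gave 15 (background 9.04%), conditioning under isoflurane minus isoflurane 9 (background 4%), and conditioning minus conditioning under isoflurane 2 (background 3.69%). The interaction gave 6 (background 4.79%) and the F test 13 (background 7.35%). Set against 113 tested members these are 15%, 12.4%, 9.73%, 3.54%, 13.3%, 7.96%, 1.77%, 5.31% and 11.5%, a few percentage points from the background to either side. The values below are therefore descriptions of levels, and none of the differences named is past the adjusted threshold in the fit as reported. Members given array by array were mostly picked for a low p, so separation of their arrays follows in part from that choice.

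The subunits of the proteasome itself lay mostly lower in both conditioning groups than in their controls. Of 32 probe sets for 20S and 19S subunits, 27 were lower in conditioning than in baseline, where 50.1% of all probe sets were lower. Their median difference was -0.108, against -0.000452 for all probe sets. In conditioning under isoflurane minus baseline 27 of 32 were lower (background 48.9%), with a median of -0.0896. These comparisons share the 9 baseline arrays. Against their own controls, 27 of 32 were lower in conditioning under isoflurane than under isoflurane alone (background 49.3%, median -0.105) and 23 of 32 in conditioning than in pain (background 49.7%, median -0.0854). In the controls, 16 of 32 were lower after pain (background 50.8%, median -0.00475) and 16 of 32 after isoflurane (background 49%, median 0.00414). Conditioning minus conditioning under isoflurane gave 18 of 32 lower (background 51.8%), with a median of -0.0288.

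Array by array, the groups still overlapped. The mean over the 32 probe sets, each centred on its own mean over all arrays, was 0.0304 ± 0.0681 in baseline (SD, n = 9), with arrays from -0.117 to 0.109. Conditioning arrays lay at -0.066 ± 0.0515 (SD, n = 5), from -0.139 to -0.006, all 5 below 0. Conditioning under isoflurane lay at -0.046 ± 0.0724 (SD, n = 5), with 4 of 5 below 0. Pain was at 0.0133 ± 0.0352 and isoflurane at 0.0441 ± 0.0969 (SD, n = 5 each). The ranges of all 5 groups overlap, and 2 of 9 baseline arrays were below 0 as well.

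**Figure D1:**
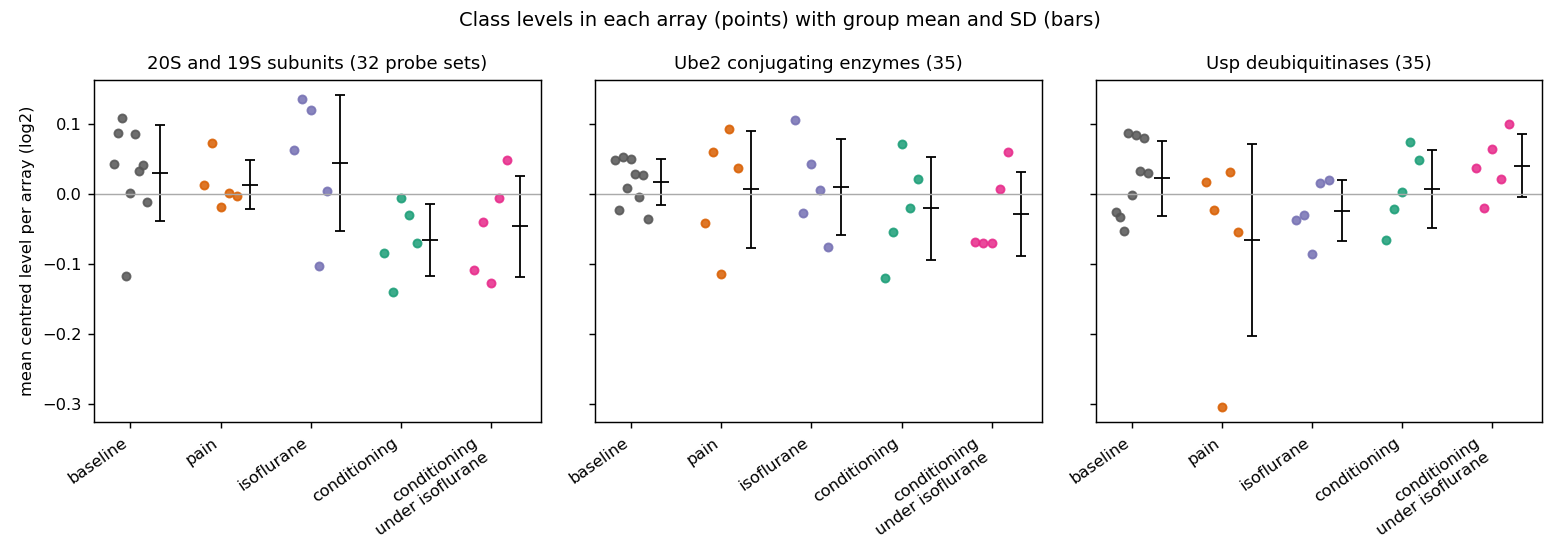
Mean centred log2 level per array for the 20S and 19S subunits, the conjugating enzymes and the deubiquitinases, with points for arrays and bars for group mean and SD (n = 9 in baseline, 5 in each other group). The 5 conditioning arrays sit below 0 in the first panel, between -0.139 and -0.006, within the baseline range of -0.117 to 0.109 but for the lowest, and 1 pain array, at -0.303, lies far below the rest in the deubiquitinase panel.

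Where a conditioning group was compared with baseline, pain or isoflurane, the direction of the subunit median did not depend on the way the arrays were scaled. With the deposited scaling kept as it is, 28 of 32 subunits were lower in conditioning than in baseline, with a median of -0.129. With each array centred on its median, 30 of 32 were lower and the median was -0.205, but on that scale all probe sets had a median of -0.0599, so the subunits lay -0.145 from it. In 40 alternative settings, including each array left out in turn, the median stayed below 0 in conditioning minus baseline (-0.205 to -0.0787) and in conditioning under isoflurane minus baseline (-0.15 to -0.0629). The same held in conditioning minus pain (-0.108 to -0.0196) and in conditioning under isoflurane minus isoflurane (-0.152 to -0.0747). The medians of pain and isoflurane against baseline took both signs, and the sign held in 30 and 31 of 40 settings. With the deposited scaling they were -0.052 after pain (20 of 32 lower) and -0.00476 after isoflurane (17 of 32 lower). With arrays centred on medians 29 of 32 were lower after pain (median -0.174), but all probe sets then had a median of -0.111, and 21 of 32 lay below it. On that scale 18 of 32 were lower in conditioning than in pain, and 21 of 32 lay below the median of all probe sets, 0.0425.

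**Figure D2:**
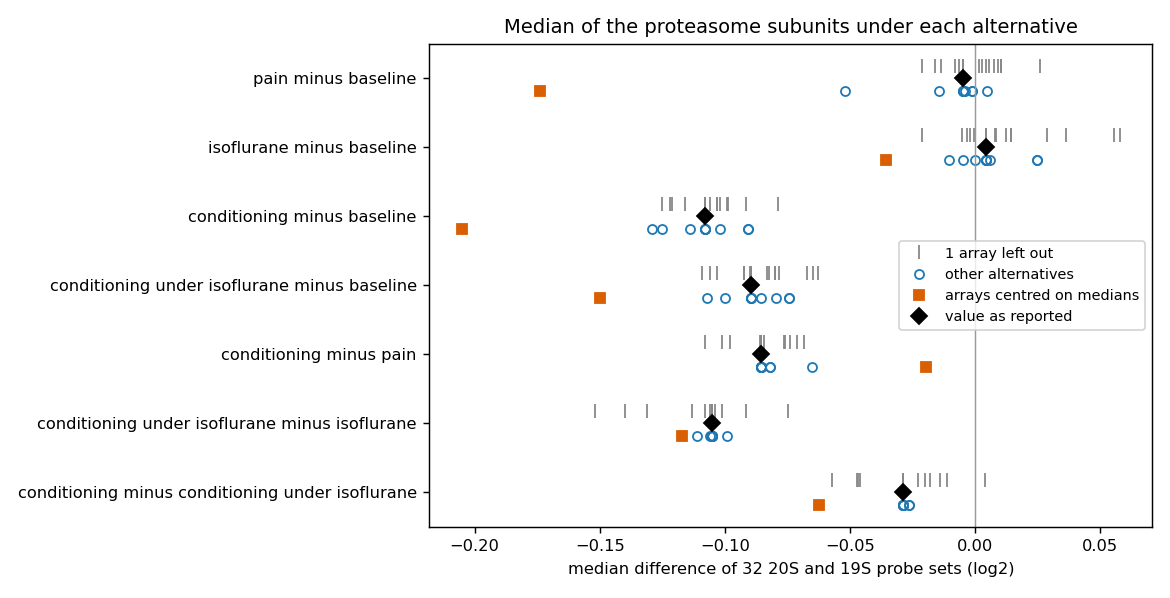
Median log2 difference of the 32 proteasome subunit probe sets in each comparison (black diamonds), with each array left out (ticks), arrays centred on medians (orange squares) and other alternatives (blue circles). The 4 comparisons of a conditioning group with baseline, pain or isoflurane lie left of 0 in every setting shown, from -0.205 to -0.0196, and pain or isoflurane minus baseline lie on both sides of it.

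The 20S core has an outer alpha ring on each side, which gates the entry, and inner beta rings that hold the protease sites. All 7 alpha probe sets were lower in conditioning than in baseline (median -0.0945), and 6 of 7 beta probe sets (median -0.0841). In conditioning under isoflurane minus isoflurane all 14 core probe sets were lower (background 49.3%, median -0.145), from -0.26 to -0.00486. Their array means were 0.0582 ± 0.143 after isoflurane and -0.0597 ± 0.0869 in conditioning under isoflurane (SD, n = 5 each). These arrays ran from -0.116 to 0.242 and from -0.159 to 0.0496, so the groups overlap. Psma4, of the alpha ring, differed most from baseline after pain, by -0.37 ± 0.104 (SE, limma adjusted p = 0.346), with means of 9.87 ± 0.215 after pain and 10.24 ± 0.215 in baseline (SD, n = 5 and 9). It was -0.22 in conditioning minus baseline and -0.24 in conditioning under isoflurane minus baseline. Psma3 had a group mean of 9.69 ± 0.188 in baseline, 9.60 ± 0.0826 in conditioning and 9.57 ± 0.0963 in conditioning under isoflurane (SD). Psma7 stayed between 10.79 and 10.93 in all 5 group means. Psma5 was -0.17 in conditioning under isoflurane minus isoflurane (unadjusted p = 0.0447).

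Of the catalytic beta subunits, the array measures Psmb5, the chymotrypsin-like site, and Psmb7, the trypsin-like site, with a single symbol each. The Psmb6 probe set carries a second symbol and is not named here. Psmb7 was at 11.86 ± 0.116 in baseline (SD, n = 9), 11.82 ± 0.0827 after pain, 11.91 ± 0.140 after isoflurane, 11.65 ± 0.102 in conditioning and 11.75 ± 0.0505 in conditioning under isoflurane (SD, n = 5 each). The conditioning difference from baseline was -0.21 ± 0.0629 (SE, limma adjusted p = 0.415), and from pain -0.17 (limma adjusted p = 0.521). Psmb7 was 1 of the 8 members with the lowest p in the F test (limma adjusted p = 0.674). Against isoflurane, conditioning under isoflurane was -0.16 apart (adjusted p = 0.998).

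Psmb5 read 11.92, 12.13 and 12.39 in the lowest, median and highest baseline array. Pain arrays read 12.04, 12.06, 12.07, 12.12 and 12.12, and isoflurane arrays 11.73, 11.95, 12.09, 12.18 and 12.22. Conditioning arrays read 11.78, 11.91, 12.07, 12.07 and 12.29, and those of conditioning under isoflurane 11.80, 11.90, 11.91, 12.06 and 12.20. All groups overlap, and the pain arrays were the closest together. The difference of conditioning under isoflurane from baseline was -0.18 ± 0.0859 (SE, limma adjusted p = 0.754).

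Psmb10 is an inducible catalytic subunit that takes the place of Psmb7 in the immunoproteasome. Its baseline arrays read 8.98, 9.15 and 9.44 (lowest, median, highest), pain arrays 9.18, 9.22, 9.33, 9.39 and 9.56, and isoflurane arrays 8.88, 9.05, 9.25, 9.34 and 9.35. Conditioning arrays read 9.11, 9.17, 9.40, 9.41 and 9.64, and conditioning under isoflurane 8.83, 9.06, 9.11, 9.23 and 9.60. It was the single beta subunit above 0 in conditioning minus baseline, at 0.15, with the highest array in conditioning and all groups overlapping. Other beta subunits were Psmb3, -0.16 in conditioning under isoflurane minus baseline, and Psmb4, 0.08 in isoflurane minus baseline (adjusted p = 0.983) and -0.16 ± 0.0621 in conditioning under isoflurane minus isoflurane (SE, limma adjusted p = 0.998).

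**Figure D3:**
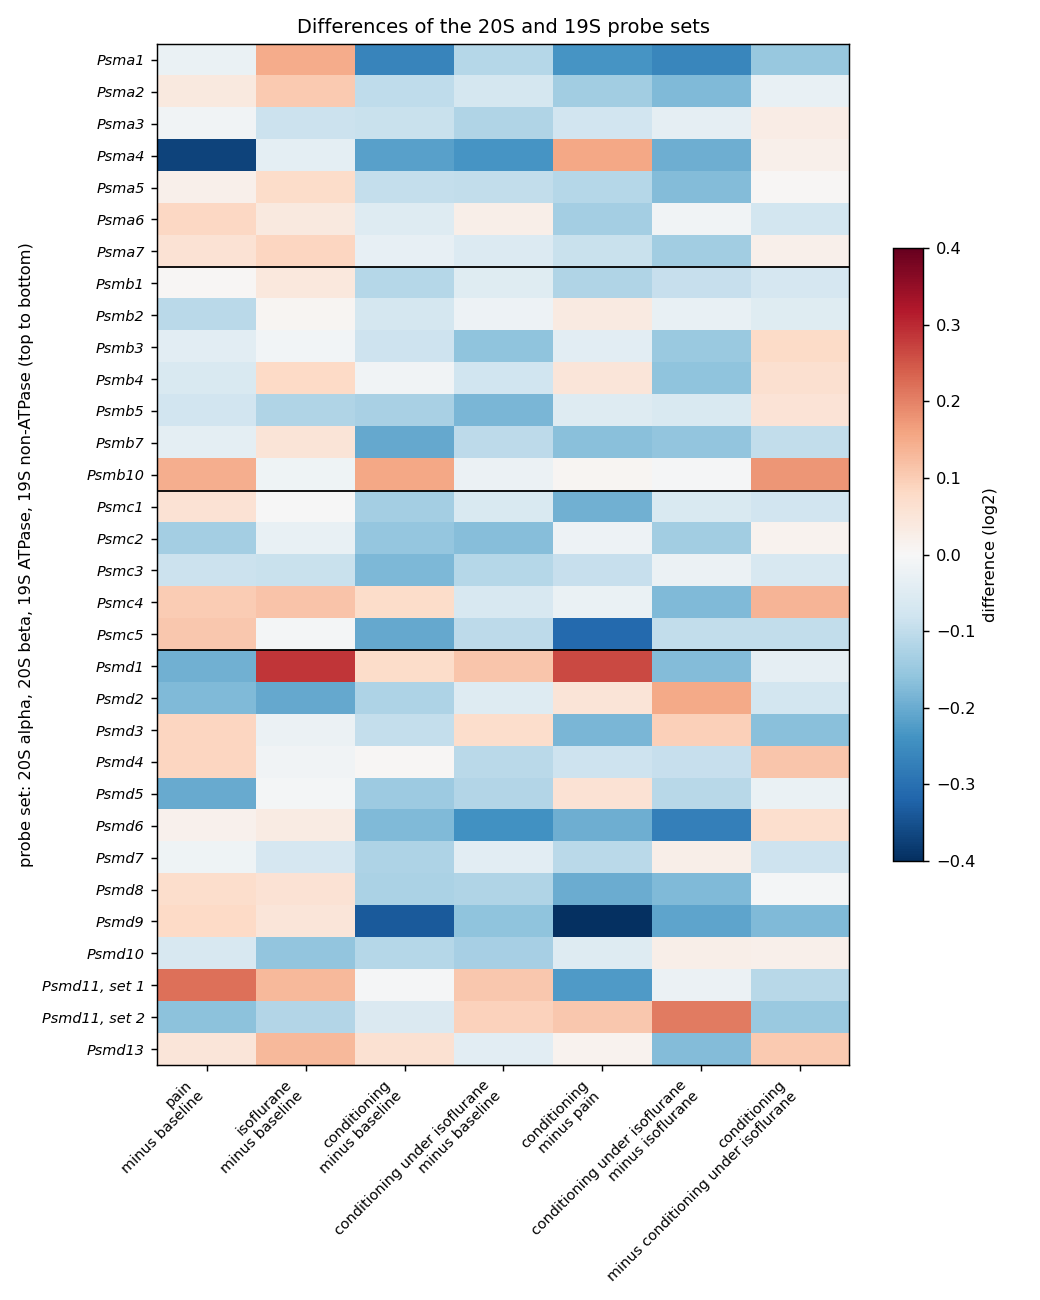
Log2 differences of the 32 subunit probe sets (rows, in the order alpha, beta, ATPase, non-ATPase) in 7 comparisons (columns), blue for lower and red for higher in the first group. Colours end at 0.4 in each direction, so Psmd9 in conditioning minus pain, at -0.42, is drawn at the end of the scale. The columns for conditioning against baseline and conditioning under isoflurane against baseline or isoflurane hold 27 blue rows each.

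Promoters of 4 members are shown because the named differences centre on them: Psmb7 and Psmd9 had the lowest p of all members in conditioning minus baseline, Ube2s the lowest there among the conjugating enzymes, and Psmb5 is a catalytic subunit. Each sequence is the 250 bases before the RefSeq start on the rat genome GRCr8, 5′ to 3′ in the direction of the gene. Coordinates are chr15:32047380-32047629 (minus strand) for Psmb5, chr3:42827471-42827720 (minus strand) for Psmb7, chr12:39018265-39018514 (minus strand) for Psmd9 and chr1:78057409-78057658 (plus strand) for Ube2s. Capitals mark matches, on either strand, to TGACNNNGC, the core of the antioxidant response element bound by Nfe2l1, a factor known to raise proteasome genes when the proteasome is inhibited, and to CCAAT, the box bound by NF-Y. Matches on the other strand appear as the reverse complement.
Psmb5: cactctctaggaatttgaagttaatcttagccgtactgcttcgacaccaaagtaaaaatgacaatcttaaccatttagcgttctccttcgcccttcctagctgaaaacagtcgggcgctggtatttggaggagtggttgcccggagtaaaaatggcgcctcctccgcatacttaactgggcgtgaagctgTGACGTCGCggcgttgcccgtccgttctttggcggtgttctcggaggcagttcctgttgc
Psmb7: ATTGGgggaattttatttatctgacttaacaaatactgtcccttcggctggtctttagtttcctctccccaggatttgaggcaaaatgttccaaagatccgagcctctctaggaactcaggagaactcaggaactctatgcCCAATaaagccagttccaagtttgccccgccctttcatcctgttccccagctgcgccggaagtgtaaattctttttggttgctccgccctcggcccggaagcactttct
Psmd9: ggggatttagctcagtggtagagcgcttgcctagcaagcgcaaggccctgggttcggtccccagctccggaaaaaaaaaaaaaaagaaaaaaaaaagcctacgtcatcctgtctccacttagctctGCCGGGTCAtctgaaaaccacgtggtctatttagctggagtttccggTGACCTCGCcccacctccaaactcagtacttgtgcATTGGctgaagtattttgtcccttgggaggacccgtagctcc
Ube2s: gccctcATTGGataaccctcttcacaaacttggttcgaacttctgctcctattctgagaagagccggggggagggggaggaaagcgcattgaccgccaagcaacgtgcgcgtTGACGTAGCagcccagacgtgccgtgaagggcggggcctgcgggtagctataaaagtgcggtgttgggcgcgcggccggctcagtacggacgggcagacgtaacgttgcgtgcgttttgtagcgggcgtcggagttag
Psmb5 holds a single TGACNNNGC match, 60 bases before the start (counted to its first base), and no CCAAT. Psmb7 holds CCAAT on both strands and no TGACNNNGC. Psmd9 holds TGACNNNGC on both strands and a CCAAT match on the other strand, and Ube2s has 1 match to each. Promoters were matched for 89 of 101 member genes. TGACNNNGC was found in 5 of 29 promoters of 20S and 19S subunits (17.2%), 6 of 23 of conjugating enzymes (26.1%) and 4 of 27 of deubiquitinases (14.8%), against 10.2% of all 27457 promoters. CCAAT was found in 16 of 29 subunit promoters (55.2%), 34.8% of conjugating enzymes and 25.9% of deubiquitinases, against 34.3% of all. In Psmb2 the 2 motifs lie 68 and 72 bases before the start and share 1 base. A match is a letter match only.

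The base of the 19S particle is a ring of 6 ATPases that unfold the substrate, of which 5 have a single-symbol probe set. Of these, 4 were lower in conditioning than in baseline, with a median of -0.156 over the 5, and 5 of 5 were lower in conditioning under isoflurane than in baseline (median -0.106). Psmc5, the ATPase whose phosphorylation has been studied in memory, was at 11.10 ± 0.184 in baseline (SD, n = 9), 11.21 ± 0.0506 after pain and 10.90 ± 0.222 in conditioning (SD, n = 5). Its conditioning difference was -0.20 from baseline (adjusted p = 0.467) and -0.31 from pain (± 0.103 SE, limma adjusted p = 0.452). Psmc1 was at 10.88 ± 0.118 in baseline, 10.94 ± 0.0880 after pain and 10.75 ± 0.0909 in conditioning (SD), a difference of -0.19 between the last pair (adjusted p = 0.521). Psmc2 stood at 11.61 ± 0.177 in baseline and between 11.44 and 11.58 in the other groups. Psmc4 was the ATPase above 0 in conditioning minus baseline, at 0.0738, and its interaction was -0.25 (adjusted p = 0.959).

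The other 19S subunits are covered by 13 probe sets of 12 genes and hold the ubiquitin receptors and the lid. Of these 13, 10 were lower in conditioning than in baseline (median -0.114) and 9 in conditioning under isoflurane than in baseline (median -0.0521). Psmd4, a ubiquitin receptor, was at 10.12 ± 0.196 in baseline and 10.12 ± 0.0700 in conditioning, with 10.01 ± 0.110 in conditioning under isoflurane (SD). Psmd1, a scaffold of the base, varied more, from 8.88 ± 0.468 after pain to 9.36 ± 0.491 after isoflurane (SD, n = 5 each). Psmd2, the other large scaffold, was -0.20 ± 0.0797 from baseline after isoflurane (SE, limma adjusted p = 0.922) and 0.15 in conditioning under isoflurane minus isoflurane (adjusted p = 0.998), and its interaction was 0.28 (adjusted p = 0.959). Psmd13 was 0.13 higher after isoflurane than in baseline (adjusted p = 0.983).

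Psmd9 encodes a chaperone that helps the ATPase ring assemble. Baseline arrays read 8.26, 8.44 and 8.73 (lowest, median, highest), pain arrays 8.36, 8.45, 8.52, 8.62 and 8.72, and isoflurane arrays 8.23, 8.39, 8.60, 8.61 and 8.68. Conditioning arrays read 7.94, 7.97, 8.14, 8.22 and 8.33, and conditioning under isoflurane 8.01, 8.20, 8.32, 8.35 and 8.59. Every conditioning array lay below every pain array, and 1 of 5 reached into the lower end of the baseline range. The difference was -0.34 ± 0.103 from baseline (SE, limma adjusted p = 0.415) and -0.42 ± 0.117 from pain (adjusted p = 0.367), and the F test gave 4.575 (adjusted p = 0.674). With each array left out in turn, the difference from baseline ran from -0.389 to -0.292. Psmd5 and Psmd10 are chaperones of the same step. Without these 3 genes, 24 of 29 subunit probe sets were lower in conditioning than in baseline (median -0.0964).

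Psmd6 is a structural subunit of the lid. In baseline its arrays read 11.09, 11.30 and 11.52 (lowest, median, highest), after pain 11.09, 11.23, 11.36, 11.42 and 11.47, and after isoflurane 11.09, 11.27, 11.34, 11.43 and 11.51. Conditioning arrays read 10.89, 11.02, 11.21, 11.21 and 11.28, and those of conditioning under isoflurane 10.90, 10.98, 11.04, 11.12 and 11.23. In both conditioning groups no array reached the baseline median of 11.30, while the ranges overlap in their upper part. Conditioning under isoflurane was -0.24 ± 0.0837 from baseline (SE, limma adjusted p = 0.635) and -0.27 ± 0.0949 from isoflurane (adjusted p = 0.998).

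**Figure D4:**
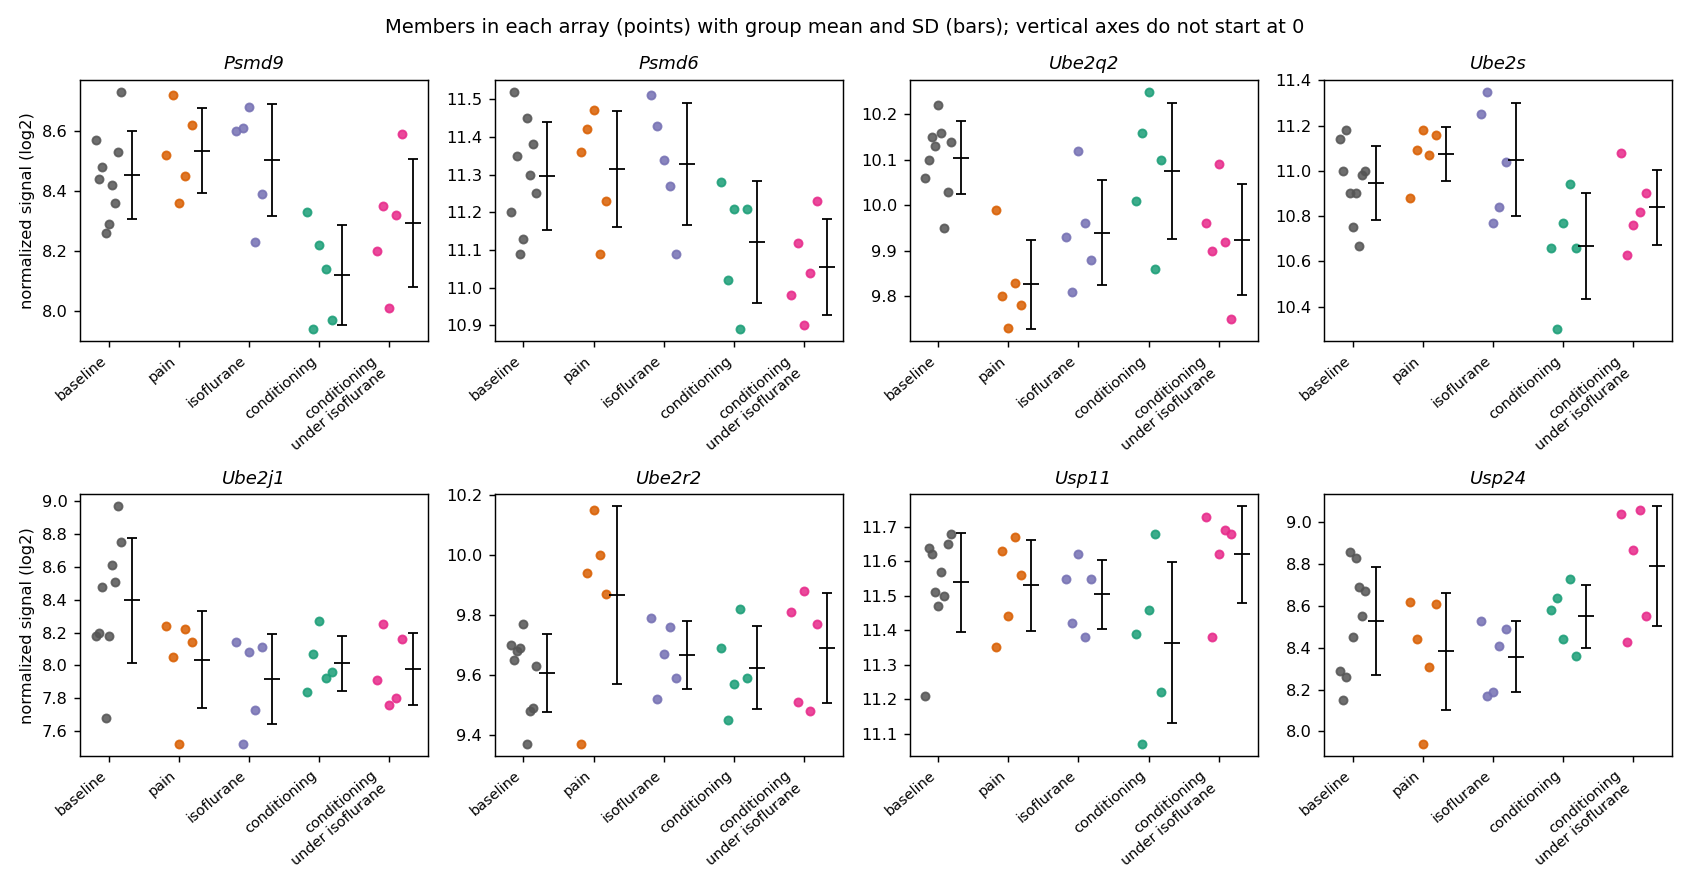
Normalised log2 signal of 8 members in every array (points) with group mean and SD (bars, n = 9 in baseline and 5 elsewhere); vertical axes differ and do not start at 0. Psmd9 conditioning arrays (7.94 to 8.33) lie below all pain arrays (8.36 to 8.72), 4 of 5 Ube2q2 pain arrays (9.73 to 9.99) lie below the lowest baseline array (9.95), and the other panels overlap more widely.

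Activators open the core without ubiquitin: Psme1 and Psme2 form the interferon-inducible cap, and Psme4 a single-chain one. Of their 4 tested probe sets, 3 were higher in conditioning than in baseline (median 0.105) and 4 of 4 higher than in pain (median 0.24). Psme1 was at 9.95 ± 0.234 in baseline and 10.15 ± 0.148 in conditioning, and Psme2 at 9.19 ± 0.160 and 9.14 ± 0.269, with 8.88 ± 0.863 after pain (SD). The lowest unadjusted p among the 4 was 0.106 in conditioning minus pain. Psmf1, an inhibitor and regulator of the core, was at 9.29 ± 0.256 in baseline, 8.88 ± 0.384 after pain, 9.24 ± 0.0883 after isoflurane, 9.28 ± 0.219 in conditioning and 9.08 ± 0.171 in conditioning under isoflurane (SD). Its difference after pain was -0.42 ± 0.133 (SE, limma adjusted p = 0.404), and conditioning minus pain was 0.40 ± 0.151 (adjusted p = 0.508). The pain difference ran from -0.505 to -0.252 with 1 array left out, the latter without pain replicate 3.

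The 4 assembly chaperones Psmg1 to Psmg4, which build the core, were each lower in conditioning than in baseline (median -0.152) and in conditioning under isoflurane than in baseline (median -0.163). Psmg1 was at 9.81 ± 0.155 in baseline (SD, n = 9), 9.74 ± 0.138 after pain, 9.70 ± 0.111 after isoflurane, 9.56 ± 0.128 in conditioning and 9.60 ± 0.0700 in conditioning under isoflurane (SD, n = 5 each). The conditioning difference was -0.25 ± 0.0813 (SE, limma adjusted p = 0.415) and that of conditioning under isoflurane -0.21 ± 0.0813 (adjusted p = 0.69). Psmg3 was -0.24 ± 0.092 in conditioning minus baseline (SE, adjusted p = 0.419), and Psmg2 -0.24 in conditioning under isoflurane minus isoflurane (unadjusted p = 0.0387).

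Conjugating enzymes lay on both sides of 0. Of 35 probe sets of 25 genes, 21 were lower in conditioning than in baseline (median -0.0425, from -0.0755 without conditioning replicate 3 to -0.0127 without conditioning replicate 1). In conditioning under isoflurane 22 were lower than in baseline (median -0.0345, or -0.075 without its replicate 5). After pain 16 of 35 were lower (median 0.0197) and after isoflurane 17 (median 0.0113). The median after pain was -0.11 with arrays centred on medians, where all probe sets had -0.111; its sign held in 36 of 40 settings, and that after isoflurane in 28. Single probe sets differed by up to -0.545 (conditioning under isoflurane minus isoflurane) and 0.42 (isoflurane minus baseline), wider than the subunits. Both extremes belong to the same probe set of Ube2d2 and share the isoflurane arrays. Its other probe sets reached 0.00911 and -0.0109 in these comparisons.

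Ube2q2 had the lowest p of all members after pain. Baseline arrays read 9.95, 10.13 and 10.22 (lowest, median, highest), pain arrays 9.73, 9.78, 9.80, 9.83 and 9.99, and isoflurane arrays 9.81, 9.88, 9.93, 9.96 and 10.12. Conditioning arrays read 9.86, 10.01, 10.10, 10.16 and 10.25, and conditioning under isoflurane 9.75, 9.90, 9.92, 9.96 and 10.09. Of the 5 pain arrays, 4 lay below all baseline arrays, and conditioning covered the baseline range. The pain difference was -0.28 ± 0.0729 (SE, limma adjusted p = 0.303), conditioning minus pain 0.25 ± 0.0827 (adjusted p = 0.451), and the F of 4.811 was the highest of the members (adjusted p = 0.674). With arrays centred on medians, all probe sets had a median of -0.111 after pain. On that scale Ube2q2 was called after pain, at -0.422 (limma adjusted p = 0.0427), among 10 probe sets or 0.105% of all. Smaller values were -0.16 in isoflurane minus baseline (adjusted p = 0.922), -0.18 in conditioning under isoflurane minus baseline (adjusted p = 0.693) and 0.15 in conditioning minus conditioning under isoflurane (adjusted p = 0.999).

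Ube2s adds lysine-11 chains for the anaphase-promoting complex. Baseline arrays read 10.67, 10.98 and 11.18 (lowest, median, highest), pain arrays 10.88, 11.07, 11.09, 11.16 and 11.18, and isoflurane arrays 10.77, 10.84, 11.04, 11.25 and 11.35. Conditioning arrays read 10.30, 10.66, 10.66, 10.77 and 10.94, and conditioning under isoflurane 10.63, 10.76, 10.82, 10.90 and 11.08. Of the 5 conditioning arrays, 4 were below every pain array and 3 below every baseline array. The difference was -0.41 ± 0.116 from pain (SE, limma adjusted p = 0.367) and -0.28 ± 0.102 from baseline (adjusted p = 0.417), with F = 4.251 (adjusted p = 0.674). Ube2c, which starts chains for the same complex, read 6.96, 7.42 and 7.84 in baseline (lowest, median, highest), 7.33, 7.44, 7.54, 7.76 and 7.80 in conditioning and 6.62, 7.22, 7.24, 7.32 and 7.54 in conditioning under isoflurane. Pain arrays read 7.19, 7.45, 7.54, 7.77 and 8.02, and isoflurane arrays 7.26, 7.43, 7.45, 7.50 and 7.93. The lowest array belongs to conditioning under isoflurane and the groups overlap. Its difference between the conditioning groups was 0.39 ± 0.185 (SE, limma adjusted p = 0.999).

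Ube2j1 sits in the membrane of the endoplasmic reticulum and serves the degradation of misfolded proteins there. Its baseline arrays read 7.68, 8.48 and 8.97 (lowest, median, highest), the widest baseline range among the conjugating enzymes given array by array. Pain arrays read 7.52, 8.05, 8.14, 8.22 and 8.24, and isoflurane arrays 7.52, 7.73, 8.08, 8.11 and 8.14. Conditioning arrays read 7.84, 7.92, 7.96, 8.07 and 8.27, and conditioning under isoflurane 7.76, 7.80, 7.91, 8.16 and 8.25. No treated array reached the baseline median, and all groups overlap the low end of baseline. Differences from baseline were -0.48 ± 0.161 after isoflurane (SE, limma adjusted p = 0.922), -0.36 after pain (adjusted p = 0.524), -0.38 in conditioning (adjusted p = 0.45) and -0.42 in conditioning under isoflurane (adjusted p = 0.69). They share the baseline arrays, which for Ube2j1 fall apart: replicates 1 to 5 had a mean of 8.14 and replicates 6 to 9 a mean of 8.71.

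Ube2r2, a partner of cullin ligases, read 9.37, 9.65 and 9.77 in baseline (lowest, median, highest) and 9.37, 9.87, 9.94, 10.00 and 10.15 after pain. Isoflurane arrays read 9.52, 9.59, 9.67, 9.76 and 9.79, conditioning arrays 9.45, 9.57, 9.59, 9.69 and 9.82, and conditioning under isoflurane 9.48, 9.51, 9.77, 9.81 and 9.88. Here 4 of 5 pain arrays were above all baseline arrays and the fifth equalled the lowest of them. The pain difference was 0.26 ± 0.101 (SE, limma adjusted p = 0.473).

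Ube2l6 carries ISG15, an interferon-induced relative of ubiquitin. Baseline arrays read 7.22, 7.39 and 7.55 (lowest, median, highest) and conditioning arrays 7.57, 7.61, 7.63, 7.73 and 7.76. Pain arrays read 7.39, 7.52, 7.65, 7.65 and 7.96, isoflurane arrays 7.16, 7.29, 7.31, 7.62 and 7.93, and conditioning under isoflurane 7.52, 7.58, 7.59, 7.66 and 7.69. All 5 conditioning arrays were above all baseline arrays, by a narrow margin near the level of the filter (7.26). The difference was 0.26 ± 0.117 (SE, limma adjusted p = 0.467), 0.23 after pain (adjusted p = 0.563) and 0.21 in conditioning under isoflurane (adjusted p = 0.8).

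Other conjugating enzymes of known role gave smaller or less even values. Ube2a, which tags histone H2B and works in DNA repair, was at 9.16 ± 0.288 in baseline, 8.88 ± 0.212 in conditioning and 8.84 ± 0.221 in conditioning under isoflurane (SD), the last -0.33 ± 0.131 from baseline (SE, limma adjusted p = 0.692). Its close relative Ube2b had 2 tested probe sets, at 10.22 ± 0.102 and 10.92 ± 0.153 in baseline and 10.10 ± 0.118 and 10.84 ± 0.0951 in conditioning (SD). Ube2m, which carries Nedd8 to cullins, was at 11.07 ± 0.118 in baseline, 11.17 ± 0.0461 after pain and 10.96 ± 0.238 in conditioning (SD). Ube2k, which builds lysine-48 chains, stayed within 11.13 to 11.23 and 9.80 to 9.86 in the group means of its 2 probe sets. Ube2z, which serves the ubiquitin relative FAT10, lay between 9.49 and 9.71. Ube2h was 0.24 ± 0.092 higher in conditioning than in pain (SE, limma adjusted p = 0.514), 0.17 higher in conditioning under isoflurane than in baseline (adjusted p = 0.754) 0.14 higher in conditioning than in baseline (adjusted p = 0.539) and 0.15 higher after isoflurane (adjusted p = 0.945), with F = 3.504 (adjusted p = 0.674). Its second probe set gave -0.16 after isoflurane. Ube2g1 was -0.25 in isoflurane minus baseline (adjusted p = 0.948).

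Probe sets of 1 gene did not always give the same sign, and the 6 genes where this touched an unadjusted p under 0.05 are given with both values. There are 16 genes with several tested probe sets, and in 59 of 128 pairs of gene and comparison their signs differed. In 8 pairs a probe set with an unadjusted p under 0.05 met another of opposite sign. Psmd11, of the lid, gave 0.221 and -0.164 after pain, and -0.227 and 0.108 in conditioning minus pain. Ube2n, which makes lysine-63 chains, gave -0.445 and 0.02 after pain (limma adjusted p = 0.524 for the first), and Usp32 -0.358 and 0.0577. Ube2l3, the partner of HECT ligases and parkin, gave -0.238 and 0.0269 in conditioning minus pain, and up to 0.19 after pain (limma adjusted p = 0.555). Ube2d2, an E2 of broad use, ran from -0.545 to 0.00911 in conditioning under isoflurane minus isoflurane and from -0.71 to 0.106 in the interaction, and in isoflurane minus baseline its 3 probe sets ran from -0.0109 to 0.42 (lowest limma adjusted p = 0.931). Usp9x ran from -0.0995 to 0.262 in conditioning minus pain. Probe sets of a gene were correlated over within-group deviations of 29 arrays, and the lowest value was taken where a gene had 3. Over the 16 genes this had a median of 0.209, from -0.369 for Usp32 to 0.756 for Ube2b. Several Ube2 genes are near-identical in sequence, and probe sets annotated to 2 of them (such as Ube2d2 with Ube2d3) were left out of the members.

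The Usp deubiquitinases were mostly lower after pain and after isoflurane, and mostly higher in each conditioning group than in its own control. Ligases, given below with other genes of the pathway, also leaned lower after pain and isoflurane, so that part is not particular to this class. Against their own controls, 31 of 69 ligases were lower in conditioning (background 49.7%, median 0.0487) and in conditioning under isoflurane (background 49.3%, median 0.0173). A mixed list of other deubiquitinases, also given below, had medians of -0.0152 and -0.0362 there. Of 35 Usp probe sets of 29 genes, 28 were lower after pain than in baseline, with a median of -0.0954, but the median was -0.0387 without pain replicate 3. After isoflurane 26 of 35 were lower (median -0.0376, from -0.0684 without isoflurane replicate 4 to -0.0311 with 1 array left out). Beside the pain values, blood markers summed to 1375 to 2203 after pain and 2441 to 6874 in baseline, with 2 of 2 tested probe sets lower (median -0.955), and astrocyte markers were higher in 11 of 13 (median 0.138); their part was not tested. In conditioning minus baseline 18 of 35 were lower (median -0.00117, a sign that held in 31 of 40 settings), and in conditioning under isoflurane minus baseline 10 of 35 (median 0.0355, -0.000504 with arrays centred on medians and 0.0668 without baseline replicate 8). Against their own controls, 10 of 35 were lower in conditioning than in pain (median 0.0622, from 0.0252 without conditioning replicate 4 to 0.0974 without conditioning replicate 1) and 9 of 35 in conditioning under isoflurane than in isoflurane (median 0.0778, or 0.0499 without replicate 3 of the former). These comparisons reuse, with the opposite sign, the pain and isoflurane arrays compared with baseline above, so they are not separate results. The interaction reuses the isoflurane arrays too. Array means were 0.0227 ± 0.0536 in baseline (SD, n = 9), -0.066 ± 0.137 after pain, -0.0234 ± 0.0432 after isoflurane, 0.00779 ± 0.0557 in conditioning and 0.0408 ± 0.045 in conditioning under isoflurane (SD, n = 5 each), and all groups overlap. Within baseline, replicates 1 to 5 had a mean of -0.0047 and replicates 6 to 9 a mean of 0.057, a split that the labels do not explain.

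**Figure D5:**
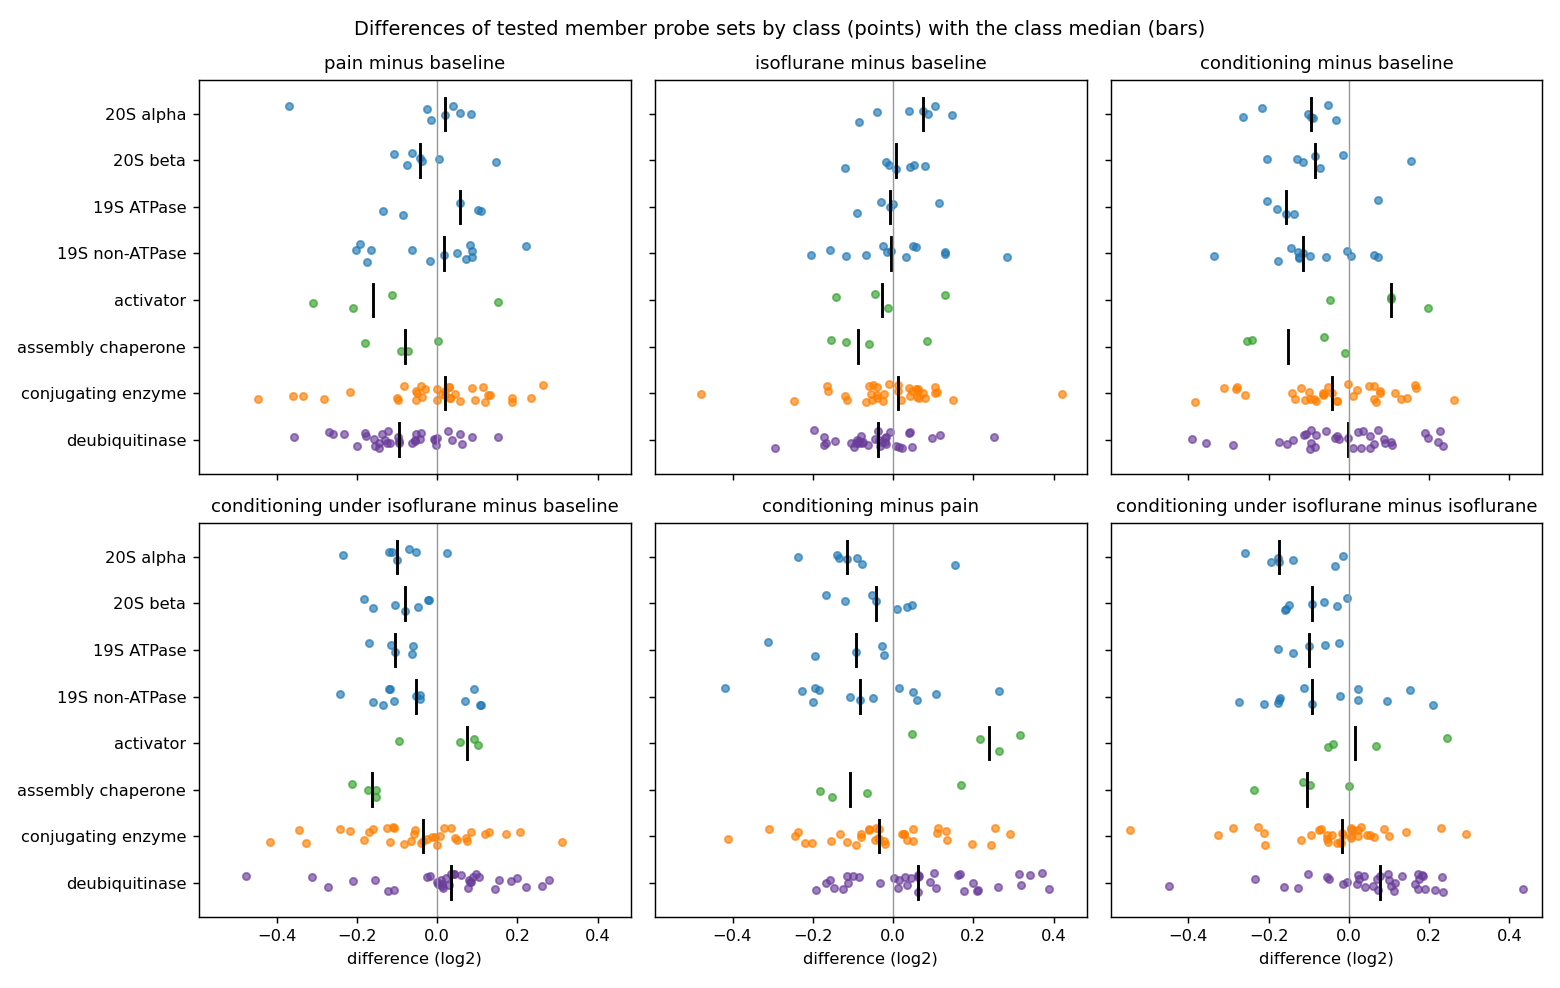
Log2 differences of the tested member probe sets by class (points) with the class median (black bars) in 6 comparisons. In conditioning minus baseline the medians of the 4 subunit rows lie left of 0, from -0.156 to -0.0841, with single points to the right. In conditioning under isoflurane minus isoflurane the deubiquitinase median is 0.0778.

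Usp24 read 8.15, 8.55 and 8.86 in baseline (lowest, median, highest), 8.17, 8.19, 8.41, 8.49 and 8.53 after isoflurane, and 8.43, 8.55, 8.87, 9.04 and 9.06 in conditioning under isoflurane. Pain arrays read 7.94, 8.31, 8.44, 8.61 and 8.62, and conditioning arrays 8.36, 8.44, 8.58, 8.64 and 8.73. Of the conditioning under isoflurane arrays, 3 were above all arrays of the other groups. The difference from isoflurane was 0.43 ± 0.15 (SE, limma adjusted p = 0.998), and the interaction 0.41 ± 0.2 (adjusted p = 0.959).

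Usp11 read 11.21, 11.57 and 11.68 in baseline (lowest, median, highest), 11.35, 11.44, 11.56, 11.63 and 11.67 after pain, and 11.38, 11.42, 11.55, 11.55 and 11.62 after isoflurane. Conditioning arrays read 11.07, 11.22, 11.39, 11.46 and 11.68, and conditioning under isoflurane 11.38, 11.62, 11.68, 11.69 and 11.73. The lowest array belongs to conditioning and the highest to conditioning under isoflurane, with overlap between them. Their difference was -0.26 ± 0.0963 (SE, limma adjusted p = 0.999).

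Usp9x, a large enzyme of neuronal development, read 9.97, 10.34 and 10.50 in baseline (lowest, median, highest) by the probe set with the lowest p of its 3. Conditioning arrays read 10.37, 10.37, 10.53, 10.57 and 10.65, and conditioning under isoflurane 10.41, 10.44, 10.51, 10.56 and 10.57. Pain arrays read 9.97, 10.22, 10.25, 10.33 and 10.41, and isoflurane arrays 9.97, 9.98, 10.39, 10.47 and 10.59. All 10 arrays of the conditioning groups were above the baseline median, within or just above the baseline range. Both differences from baseline came to 0.22 ± 0.0998 (SE, limma adjusted p = 0.467 and 0.743), and conditioning minus pain to 0.26 ± 0.113 (adjusted p = 0.521). Conditioning under isoflurane minus isoflurane was 0.22 (adjusted p = 0.998), and another probe set gave 0.14 in conditioning under isoflurane minus baseline (adjusted p = 0.816).

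Usp2, a clock-controlled deubiquitinase, has 2 tested probe sets. The first read 7.93, 8.63 and 9.01 in baseline (lowest, median, highest), 7.22, 8.51, 8.64, 8.80 and 8.98 after pain, and 8.61, 8.68, 8.93, 8.95 and 9.01 after isoflurane. In conditioning it read 8.53, 8.60, 8.61, 8.89 and 9.46, and in conditioning under isoflurane 8.66, 8.71, 8.77, 9.06 and 9.11. The groups overlap, with pain replicate 3 far below the rest at 7.22. The second probe set read 8.64, 9.03 and 9.61 in baseline, 8.93, 8.97, 9.12, 9.24 and 9.28 after pain, and 8.72, 8.76, 8.91, 9.42 and 9.42 after isoflurane. It read 8.72, 8.92, 9.01, 9.09 and 9.26 in conditioning, and 8.86, 9.02, 9.07, 9.27 and 9.31 in conditioning under isoflurane. All of these lie within the baseline range.

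Usp46, which acts on AMPA receptors in neurons, was at 9.88 ± 0.361 in baseline (SD, n = 9), 9.68 ± 0.0934 after pain, 9.85 ± 0.525 after isoflurane, 9.52 ± 0.260 in conditioning and 9.40 ± 0.251 in conditioning under isoflurane (SD, n = 5 each). The last was -0.48 ± 0.174 from baseline (SE, limma adjusted p = 0.67) and -0.45 from isoflurane (adjusted p = 0.998). Usp36, of the nucleolus, was 0.23 ± 0.096 higher in conditioning under isoflurane than in isoflurane (SE, adjusted p = 0.998), with an interaction of 0.33 (adjusted p = 0.959). Usp34 was -0.17 in isoflurane minus baseline (adjusted p = 0.94), 0.21 in conditioning minus pain (adjusted p = 0.532) and 0.18 in conditioning under isoflurane minus isoflurane (adjusted p = 0.998). Usp3, which acts on histone H2A, was 0.20 in conditioning minus baseline (adjusted p = 0.523) and 0.18 in conditioning minus conditioning under isoflurane (adjusted p = 0.999). In the latter comparison Usp12 was at 0.28, Usp19 at -0.21, Usp21 at -0.20, Usp36 at -0.18 and Usp24 at -0.24, each with an adjusted p of 0.999. Usp20 had an interaction of 0.34 (adjusted p = 0.959) and Usp3 one of -0.30 (adjusted p = 0.959).

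Of the remaining deubiquitinases fixed by name, Usp5, which takes apart free ubiquitin chains, was at 10.81 ± 0.0905 in baseline (SD) and between 10.69 and 10.85 elsewhere. Usp7, which stabilises Mdm2 and p53, ran from 9.06 ± 0.373 after pain to 9.43 ± 0.165 in conditioning (SD), a difference of 0.37 (limma adjusted p = 0.552). Usp30, of the outer mitochondrial membrane, lay between 9.18 and 9.29. The tested probe set of Usp1, of DNA repair, lay between 7.61 and 7.82. Usp15 was under the filter, with 6.90 ± 0.309 in baseline and 6.37 ± 0.318 after isoflurane (SD), and was not tested.

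Psme3ip1 read 9.20, 9.70 and 10.00 in baseline (lowest, median, highest), 9.63, 9.88, 9.97, 10.10 and 10.13 after pain, and 9.68, 9.91, 9.96, 10.00 and 10.03 after isoflurane. Conditioning arrays read 9.61, 9.84, 9.84, 9.95 and 10.11, and conditioning under isoflurane 9.26, 9.61, 9.65, 9.72 and 10.01. The groups overlap, with conditioning under isoflurane at the level of baseline and the other treatments in its upper part. Differences from baseline were 0.30 ± 0.125 after pain (SE, limma adjusted p = 0.499), 0.27 after isoflurane (adjusted p = 0.922) and 0.23 in conditioning (adjusted p = 0.536), and conditioning minus conditioning under isoflurane was 0.22 (adjusted p = 0.999). Its interaction was -0.49 ± 0.19 (adjusted p = 0.959), the lowest p of the members there.

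Whether isoflurane altered the response to conditioning was asked by the interaction, that is, conditioning under isoflurane minus isoflurane, less conditioning minus baseline. Over the 32 subunits its median was 0.0225, with 13 of 32 below 0 (background 49.2%), over the conjugating enzymes 0.0109, and over the deubiquitinases 0.0837 with 11 of 35 below 0. The deubiquitinase value stayed above 0 in 39 of 39 settings, from 0.035 (without conditioning replicate 1) to 0.142, and 0 probe sets of any kind were called. Ube2d2 had -0.71 ± 0.313 by 1 of its 3 probe sets, Ube2c -0.49 ± 0.246 and Usp11 0.29 ± 0.128 (SE, limma adjusted p = 0.959 each).

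Other genes of the pathway, listed by role, gave 0 calls in every comparison. In conditioning minus baseline 50.1% of all probe sets were lower. Of activating enzymes and the ubiquitin relatives SUMO, NEDD8 and UFM1, 7 of 9 probe sets were lower (median -0.0996). Uba1 is the 1 that activates ubiquitin, and no gene of ubiquitin itself is among the 9. Of shuttle and unfolding factors 21 of 26 were lower (median -0.0803). That list also holds the proteasome subunits Sem1 and Adrm1, the assembly factor Pomp and the UFM1 ligase Ufl1. Of ligases 43 of 69 were lower (median -0.0286). A mixed list of other deubiquitinases, SUMO proteases and related subunits of larger complexes had 10 of 19 lower (median -0.0362). Regulators of proteasome genes had 5 of 11 lower (median 0.0244). In conditioning under isoflurane minus isoflurane (background 49.3%) the counts were 5 of 9, 13 of 26, 31 of 69, 11 of 19 and 5 of 11. Their medians were -0.051, -0.0032, 0.0173, -0.0362 and 0.0386. Ligases were lower in 43 of 69 after pain (background 50.8%, median -0.0537) and 40 after isoflurane (background 49%, median -0.0374). In conditioning minus pain 38 were higher and 31 lower (background 49.7% lower, median 0.0487). In the interaction 48 were higher and 21 lower (background 49.2% lower, median 0.0676). In the mixed list 11 of 19 were lower after pain (median -0.0158), 12 after isoflurane (median -0.0558) and 10 in conditioning minus pain (median -0.0152). Its interaction was above 0 in 11 (median 0.0354).

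Markers of other cell types differed between the same groups. In conditioning minus baseline 13 of 13 oligodendrocyte probe sets were higher (median 0.34), and their summed signal was 34752 to 48023 against 27000 to 42351 in baseline. Astrocyte markers were higher in 13 of 13 (median 0.169), at 47249 to 58287 against 38880 to 47597. Striatal markers were lower in 9 of 9 (median -0.387), at 4930 to 12416 against 5436 to 17802, and markers of GABAergic neurons in 7 of 9 (median -0.271), at 12372 to 16464 against 15695 to 20114. Excitatory neuron markers were lower in 3 of 7 (median 0.0588), at 14264 to 17535 against 10266 to 19719. In conditioning under isoflurane minus isoflurane, where the subunit median was -0.105, the medians were -0.0208 for oligodendrocytes (7 of 13 lower), 0.0493 for astrocytes (4 of 13), 0.121 for striatum (1 of 9), -0.0215 for GABAergic neurons (6 of 9) and 0.0252 for excitatory neurons (2 of 7). No probe set of these lists was at the floor in all arrays. Their part in the subunit values was not tested.

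Subunits of the core also varied together from array to array within groups. Over 29 arrays, with group means taken out, the median correlation of the 91 pairs of 20S probe sets was 0.319, and 91.2% of pairs were above 0. It was 0.151 for 153 pairs of 19S probe sets, 0.0439 for conjugating enzymes, 0.0587 for deubiquitinases and -0.000154 for all pairs of tested probe sets. The values share arrays and their normalisation, and with arrays centred on medians they were 0.625 for the 20S and 0.0679 for all. The median SD within groups was 0.134 for 20S, 0.161 for 19S, 0.189 for conjugating enzymes and 0.209 for deubiquitinases, against 0.227 for all probe sets. The array means of 20S and 19S were on the same side of 0 in 22 of 29 arrays.

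Baseline replicates 1 to 5 and 6 to 9 are known from earlier results of these data to differ, and the labels give no reason. For the subunits the difference was small, with a median of 0.0271 (6 to 9 minus 1 to 5), but 12 members differed by over 0.3. The deubiquitinase array means were -0.0047 ± 0.0549 in replicates 1 to 5 and 0.057 ± 0.0289 in replicates 6 to 9 (SD). Below 0 were 4 of 5 and 0 of 4 of these arrays, and the group means after pain and isoflurane were -0.066 and -0.0234. The deubiquitinase medians after pain and after isoflurane stayed below 0 in 40 of 40 settings, both baseline subsets included. Ube2d2 had means of 9.08 and 8.23 by 1 of its 3 probe sets, Usp2 of 8.83 and 8.27 by 1 of 2, and Psma4 of 10.09 and 10.43 in replicates 1 to 5 and 6 to 9. Against replicates 6 to 9 alone, Psma4 (-0.561, limma adjusted p = 0.0197) and Ube2j1 (-0.675, adjusted p = 0.0344) were called after pain (background 1.68%). Ube2d2 (0.893, adjusted p = 0.0469, by 1 of its 3 probe sets, another of which was at -0.0109 against all baseline arrays) and Ube2j1 (-0.793, adjusted p = 0.0435) were called after isoflurane (background 0.305%). Ube2j1 was also called in conditioning (-0.697, adjusted p = 0.0365, background 1.06%) and in conditioning under isoflurane (-0.731, adjusted p = 0.037, background 0.599%). Against replicates 1 to 5 alone, 0 members were called.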

How the data were processed

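The values are signal intensities on a linear scale, 1 per probe set and array, as deposited by the authors, who had scaled each array to a common level, since every array has a trimmed mean (2% off each end) of 500.084 to 500.117. Software and genome build of that step are not given in the sources used here. From these, 57 control probe sets were left out and the signals of 29 arrays were quantile normalised (array medians spanned 0.4718 on the log2 scale, over the limit of 0.2 set for it), with values under 16 set to 16, before log2 was taken. Gene symbols come from the GEO platform annotation (12783 probe sets with 1 symbol, 312 with several, 2771 with none); all 126 members matched a current gene record in RefSeq (GRCr8), which changed 0 symbols. The rat array was summarised by the authors before deposit, so probes of 1 probe set cannot be examined, and the number of arrays limits the precision: the median SE of a member was 0.104 against baseline and 0.118 between treated groups.

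Tests covered the 9520 probe sets whose mean reached the 40th percentile (7.26), with limma 3.58.1 in R 4.3.3 (lmFit on all arrays with 1 mean per group, eBayes with a trend on intensity) and Benjamini-Hochberg adjustment at 0.05. There were 7 differences, an interaction and a moderated F test over 5 groups. The fit was tested on simulated data. Named members are the 5 with the lowest p on each side of 0 in each comparison, the 8 with the lowest p in the F test, a list fixed by role (proteasome subunits, conjugating enzymes and deubiquitinases), and genes whose probe sets disagree. The members and the lists were chosen with earlier results of these data known. Psmb6, Psmd14, Psme3, Ube2d3 and Usp14, also on that list, have no probe set with a single symbol here. Replicate numbers do not pair the arrays: over 50 pairs of arrays with the same number, the correlation of deviations from the group means ran from -0.238 to 0.259, with 12 over 0.1. Alternatives covered scaling, filter, floor, variance trend, samples in the fit, baseline subsets, a replicate block, genes with several probe sets averaged, and each array left out.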

Additional observations from a re-analysis of the deposited data

Results flagged for a closer look

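In 10 of 230 sets of values of 1 member or class in 1 group, an array stood far from the others of its group, by Dixon's gap test; chance alone gives about 1 in 20. Of the 10, 5 lie in pain replicate 3, the array with the highest deposited median signal (292.2). In that array Psmd11 read 11.24 by 1 of its probe sets (other pain arrays 10.61 to 10.75), Psmc4 11.09 (10.68 to 10.77), Ube2j1 7.52 (8.05 to 8.24), Usp2 7.22 (8.51 to 8.98), and the deubiquitinase mean was -0.303 (-0.053 to 0.032). The other 5 were Ube2h at 10.03 in isoflurane replicate 4 (9.75 to 9.83), Usp3 at 7.73 in isoflurane replicate 2 (7.98 to 8.04), Psmc1 at 10.6 in baseline replicate 4 (10.82 to 11.01), Usp11 at 11.21 in baseline replicate 1 (11.47 to 11.68) and Usp20 at 9.04 in baseline replicate 5 (9.6 to 10.06). What sets these arrays apart was not tested.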

How the results depend on the processing

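The count of members called was 0 in 353 combinations of comparison and alternative and above 0 in 5. The 5 were 1 member after pain with arrays centred on medians (Ube2q2, -0.422), and, against baseline replicates 6 to 9 alone, 2 after pain (Psma4, -0.561, and Ube2j1, -0.675), 2 after isoflurane (Ube2d2, 0.893, and Ube2j1, -0.793), 1 in conditioning (Ube2j1, -0.697) and 1 in conditioning under isoflurane (Ube2j1, -0.731). With arrays centred on medians, class medians moved with the median of all probe sets, which was -0.111 after pain, -0.0599 in conditioning minus baseline and 0.0572 in the interaction. After pain they were -0.15 for all members, -0.174 for subunits, -0.11 for conjugating enzymes and -0.178 for deubiquitinases; in conditioning minus baseline -0.126 for all members, -0.205 for subunits and -0.126 for conjugating enzymes. In the interaction they were 0.101, 0.112, 0.0908 and 0.142 for all members, subunits, conjugating enzymes and deubiquitinases. All members moved to 0.0266 in conditioning minus pain and to -0.0538 in conditioning minus conditioning under isoflurane. The deubiquitinase median in conditioning minus baseline was -0.0636 against baseline replicates 6 to 9 alone, and after pain it ran from -0.122 to -0.0387 with 1 array left out, the latter without pain replicate 3. Of the named differences, 1 changed sign: Ube2h in isoflurane minus baseline, at -0.00815 with its 2 probe sets averaged, an average that by its construction includes the other probe set. The replicate block, in which the replicate number is a term, gave 0 members called in every comparison and subunit medians of -0.0907 in conditioning minus baseline and -0.105 in conditioning under isoflurane minus isoflurane; the deubiquitinase median after pain was -0.0449 under it.

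Limits: 5 arrays a group, a median SE of 0.104 to 0.118 for 1 member, an unexplained split of the baseline arrays, and a labelling kit named for only 2 of 5 groups. Array signals near the filter level, such as Ube2l6 and Ube2c, are the least certain.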
